A study of Mus musculus with 2 samples.

Results

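The genes described here are 9 transcripts that adipocytes are known for: the hormones Adipoq (adiponectin), Lep (leptin) and Retn (resistin), the secreted plasma proteins Cfd (adipsin, complement factor D), Agt (angiotensinogen) and Rbp4 (retinol binding protein), the growth factor Bmp8b, and Nnat (neuronatin) and Sncg (gamma-synuclein). They were found by gene symbol, 9 of the 32285 genes counted, and none of them was used to call a nucleus. The last pair are not secreted: neuronatin is a small protein of the endoplasmic reticulum membrane and gamma-synuclein is cytoplasmic.

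Adipocytes signal to other organs through proteins that they release. Adiponectin is made by mature adipocytes and is linked to insulin sensitivity, leptin reports fat stores to the brain, and resistin opposes insulin action in the mouse. Brown adipocytes burn fuel for heat and make little leptin, and Bmp8b is a growth factor that thermogenic brown fat is known to release.

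Nuclei of interscapular brown adipose tissue (BAT) from 8-week-old male mice were measured by droplet-based single-nucleus RNA sequencing, which counts RNA molecules by a random tag, the unique molecular identifier (UMI). The WT library came from Srsf1 flox/flox mice without Cre, and the KO library from Adipoq-Cre; Srsf1 flox/flox mice, so both carry the floxed alleles of the splicing factor Srsf1 and differ by a Cre that the Adipoq promoter drives in adipocytes. Each genotype had 1 library, and how many mice went into it is not stated in the sources used here. A difference between WT and KO is therefore also a difference between 2 libraries, no test was possible, and the 95% intervals given cover counting error only.

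For each class of nuclei, a gene's UMIs were summed and given per 1000000 UMIs of that class, the CPM. The WT and KO libraries held 12846 and 11495 barcodes with 93102814 and 80090208 UMIs in all and a median of 3439.5 and 4363 per barcode, of which 12771 and 11378 passed the filters, and 52 barcode sequences occurred in both. The median share of mitochondrial UMIs was 1.10% in WT and 0.0491% in KO. Srsf1 itself stood at 181 CPM in WT and 59.6 in KO adipocyte nuclei, and at 127 and 90.9 in endothelial nuclei, so it was lower in the KO library in both classes and more so in adipocytes.

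Promoter windows are shown for the members on which the results turn: Lep and Bmp8b, which stood higher in KO adipocyte nuclei, Nnat, which had the widest gap between white-like and brown nuclei, and Adipoq, whose promoter drives the Cre. Each runs from 250 bases before to 50 bases after the annotated start, 5′ to 3′ on the gene's strand, from RefSeq on GRCm38.p6. They lie at chr6:29059971-29060270 (+ strand), chr4:123104911-123105210 (+ strand), chr2:157559828-157560127 (+ strand) and chr16:23146286-23146585 (+ strand), and so cover the sequence just upstream and the first transcribed bases. Capitals mark letters that match a searched motif on either strand.
Lep: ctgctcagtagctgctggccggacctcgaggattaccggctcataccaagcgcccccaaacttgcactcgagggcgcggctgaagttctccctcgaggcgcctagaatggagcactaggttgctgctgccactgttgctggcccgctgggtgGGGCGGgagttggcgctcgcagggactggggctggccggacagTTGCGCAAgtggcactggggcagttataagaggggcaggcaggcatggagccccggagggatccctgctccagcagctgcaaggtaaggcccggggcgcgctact
Bmp8b: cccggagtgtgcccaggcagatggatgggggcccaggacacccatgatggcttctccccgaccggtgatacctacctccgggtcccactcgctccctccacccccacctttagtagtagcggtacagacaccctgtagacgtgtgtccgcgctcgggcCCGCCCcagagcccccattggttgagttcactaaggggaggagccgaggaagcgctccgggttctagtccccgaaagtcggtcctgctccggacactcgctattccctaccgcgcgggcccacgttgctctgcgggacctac
Nnat: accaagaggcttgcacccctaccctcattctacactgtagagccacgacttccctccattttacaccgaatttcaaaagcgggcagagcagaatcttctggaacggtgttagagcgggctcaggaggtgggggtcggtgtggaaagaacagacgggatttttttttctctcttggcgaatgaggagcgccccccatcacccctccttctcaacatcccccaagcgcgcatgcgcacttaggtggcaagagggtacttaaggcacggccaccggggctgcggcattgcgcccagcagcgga
Adipoq: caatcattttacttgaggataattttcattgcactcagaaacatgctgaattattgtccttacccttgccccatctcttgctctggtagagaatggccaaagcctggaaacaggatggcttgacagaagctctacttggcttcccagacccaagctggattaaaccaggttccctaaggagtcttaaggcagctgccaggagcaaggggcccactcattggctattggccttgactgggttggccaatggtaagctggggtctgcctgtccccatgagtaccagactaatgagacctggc

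All 9 members had a window, and Rbp4 had 2. The Lep window holds a match to the C/EBP sequence TTNNGCAA, 55 bases before the start, which 10.8% of all 32851 windows also hold on either strand. Of the member windows, the other match to these letters is in the second window of Rbp4. The GC box GGGCGG, held by 35.7% of all windows, is found in those of Lep, Bmp8b and Sncg and in the second of Rbp4. The TATA sequence TATAAA, at 13.6% of all windows, is in the window of Agt and in the second of Rbp4. No searched motif matched in the windows of Adipoq, Retn, Cfd and Nnat, and neither the CRE sequence TGACGTCA (1.79% of all windows) nor AGGTCA (16.3%), the core bound by nuclear receptors such as PPARG, matched in any member window. The printed windows also differ in base composition. Those of Lep, Bmp8b and Nnat hold 19, 23 and 17 CpG dinucleotides, against 0 in Adipoq and a median of 7 over all windows. A match describes letters and is not a binding site.

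Nuclei were called by sums of marker genes per 10000 UMIs. The rules gave 4650 adipocyte nuclei in WT and 2051 in KO, with a median sum of 10 adipocyte markers of 171 and 127, against 53.7 and 40.5 in the 1035 and 503 endothelial nuclei. Within them, nuclei with at least 60 UMIs of 11 brown markers such as Ucp1 and Cidea and under 5 of the white markers Slc7a10, Npr3, Trhde and Mest were called brown, which held for 4135 WT and 346 KO nuclei. Nuclei with a white sum of at least 5, at least 2 white markers detected and a brown sum under 60 were called white-like, 121 in WT and 393 in KO. The rest, 394 and 1312, lay between. These are ranges of a continuous score: the white sum of 234 WT and 191 KO nuclei lay within 1 of its limit, and the brown sum of 93 and 201 lay within 10 of its limit. The KO adipocyte nuclei largely left the brown range, with a median brown sum of 24.1 against 148 in WT, so the 1658 KO nuclei that were not white-like are compared with WT brown nuclei. Their brown sum had a median of 30 against 153, and their summed white markers were 5.10 against 1.08 per 10000 UMIs. The KO group keeps the nuclei that lay between, and the WT brown group leaves them out. These groups thus differ in more than Srsf1.

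In WT, most members stood higher in white-like than in brown adipocyte nuclei. Of the 8 members with at least 50 UMIs over both groups, 7 were at least 2-fold higher and 0 at least 2-fold lower, where 13.7% and 12.7% of all 14287 genes counted were past that fold. The 7 were Nnat, Retn, Lep, Sncg, Cfd, Adipoq and Rbp4, with a median log2 ratio over the 8 of 3.36, against -0.07 over all genes. Bmp8b was not among them, at 3.65 CPM in white-like nuclei, from 4 UMIs, and 4.24 in brown nuclei. Its log2 ratio was -0.22, with an interval of -2.11 to 1.16 that includes 2-fold in either direction. Agt had too few UMIs to be counted.

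Between KO and WT adipocyte nuclei taken as a whole, the members split. Lep, Bmp8b and Sncg were at least 2-fold higher in KO and Cfd and Rbp4 at least 2-fold lower, 3 and 2 of 8, where 18.6% and 17.6% of all 15621 genes were past that fold upward and downward. Over so few members, these shares are not read as different from those of all genes. The KO adipocyte nuclei differed from the WT ones in other lists too. Immune markers were at least 2-fold higher for 6 of 11, with a summed level of 4.05 against 1.90 per 10000 UMIs, and none of the 11 was at 0. Endothelial markers were at least 2-fold lower for 8 of the 10 with enough UMIs, with sums of 1.21 against 4.37. The part of these RNAs, and of the mitochondrial share of 0.0435% against 0.773%, in the members' ratios was not tested.

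**Figure D1:**
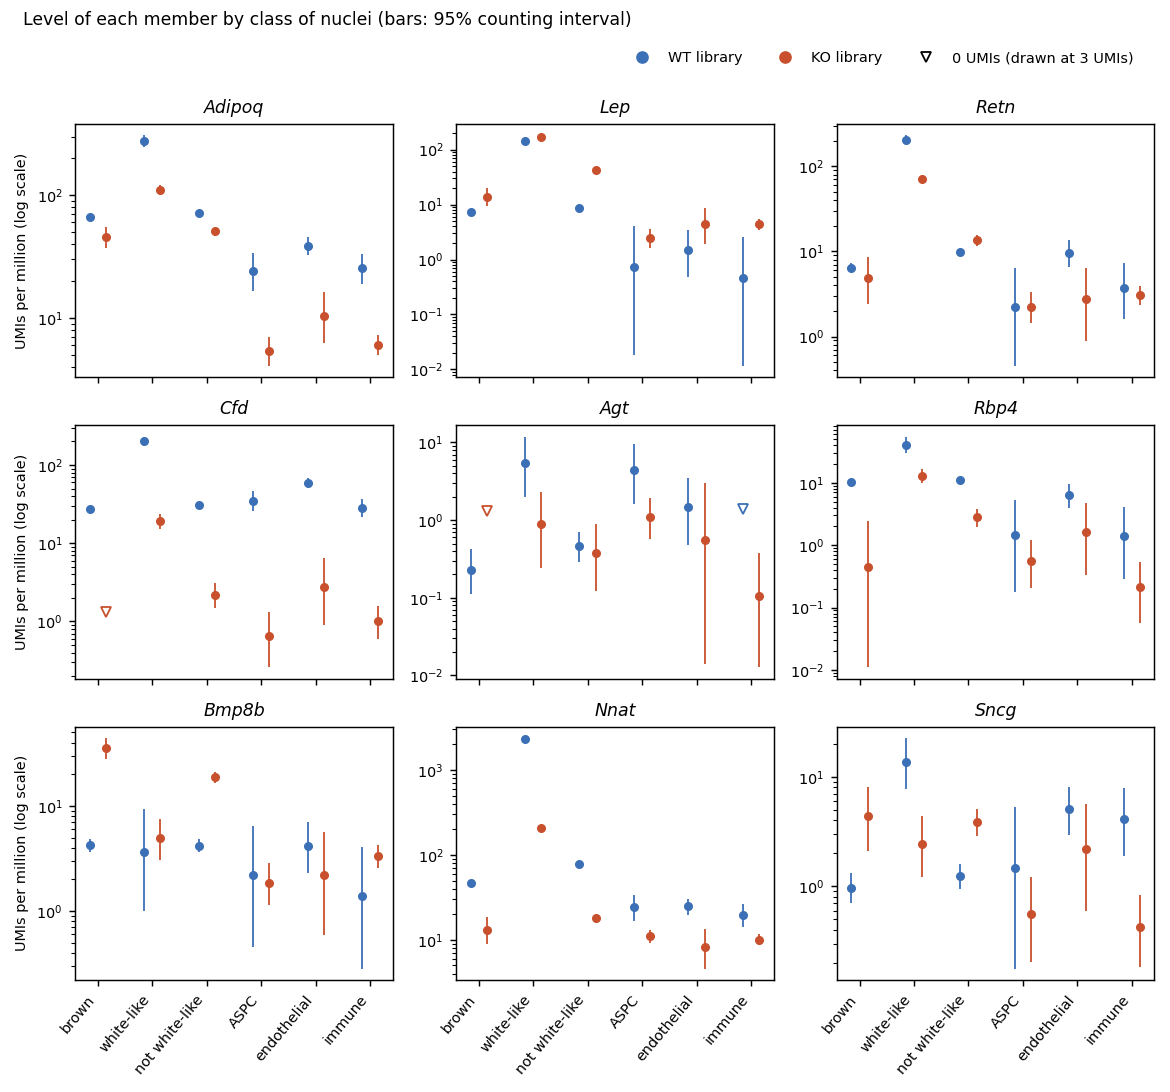
Levels of the 9 members in CPM (log axis) in each class of nuclei, with the WT library in blue, the KO library in red and bars for the 95% counting interval. White-like nuclei hold the highest WT level of 8 members, whereas Bmp8b is highest in KO brown nuclei.

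Adipoq, the adiponectin gene at chr16:23146536-23158028 of GRCm38, was present across adipocyte nuclei and highest in the white-like ones. In WT it stood at 275 CPM in white-like and 66.5 in brown nuclei, a log2 ratio of 2.05 (1.87 to 2.22). In KO it stood at 110 in white-like nuclei, 50.7 in those not white-like and 45.7 in the brown range. The order of the classes was thus the same in both libraries, with a narrower step in KO. At least 1 Adipoq UMI was found in 81% of WT white-like nuclei (72.9% to 87.6%) and 40.7% of brown ones, at median depths of 8761 and 7304 UMIs, against 11.5% of WT endothelial nuclei at a median of 2746. Endothelial nuclei do not make the adipocyte hormones, so their UMIs are read as free RNA that entered the droplets from outside. Doublets were kept, so mixed droplets are not told apart from free RNA. Whether endothelial nuclei make any of the other members was not tested. Nuclei were also thinned to 1000 UMIs by a single random draw per class, which left out no called nucleus. The WT white-like, brown and endothelial shares with an Adipoq UMI were then 19.8%, 6.51% and 3.58%.

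Adipoq differed little between all KO and all WT adipocyte nuclei, at 65.7 and 76 CPM (log2 ratio -0.21, -0.31 to -0.11). Within the white-like class it was 2.49-fold lower in KO (log2 ratio -1.32, -1.53 to -1.11), and between KO nuclei not white-like and WT brown ones the log2 ratio was -0.39 (-0.52 to -0.27). With the endothelial level of each library subtracted, the ratio over all adipocyte nuclei turned to 0.57 and the last one to 0.54, so their direction depends on the background, while that within the white-like class was negative under all 17 alternatives. The KO library holds a larger share of white-like nuclei, in which Adipoq is higher, so the ratio over all adipocyte nuclei lies above those within the classes. Whether the Cre transgene, which carries Adipoq promoter sequence, adds to the Adipoq UMIs was not tested.

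Lep, the leptin gene at chr6:29060220-29073877, showed the widest upward gap of the members between the genotypes. It stood at 75.3 CPM in KO adipocyte nuclei and 12 in WT ones, 6.30-fold higher (log2 ratio 2.66, 2.51 to 2.80). By class the gap was uneven. In white-like nuclei it stood at 171 in KO and 146 in WT, a log2 ratio of 0.23 whose interval of -0.02 to 0.48 spans 0. In KO nuclei not white-like it stood at 43 against 7.33 in WT brown nuclei (log2 ratio 2.55, 2.35 to 2.75), and in the brown range of KO at 14. With classes from Leiden clusters, which left 168 KO nuclei not white-like, the log2 ratio of 2.55 was 0.52 and no longer past 2-fold. Of these 168 nuclei, 133 came from a cluster with a brown sum of 7.622, so the ratio compares other nuclei than the one of 2.55.

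The share of nuclei with a Lep UMI followed the same order. It was 52.1% of WT and 57.8% of KO white-like nuclei, 15.6% of KO nuclei not white-like and 5.93% of WT brown nuclei, and after thinning 11.6%, 13.7%, 2.90% and 0.605%. Endothelial nuclei, which should lack leptin, held a Lep UMI in 0.483% in WT and 1.59% in KO at median depths of 2746 and 2845 UMIs. After thinning these endothelial shares were 0.193% and 0.398%, from 2 nuclei each. The Lep level in WT white-like nuclei was 97.7-fold that of WT endothelial nuclei, which rests on 5 endothelial UMIs, and that of Nnat 92.2-fold. Single KO nuclei reached 32 Lep UMIs outside the white-like class and 20 within it, against 15 and 7 in WT.

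Retn, the resistin gene at chr8:3655770-3660110, was a white-like transcript in both libraries. In WT it stood at 203 CPM in white-like and 6.41 in brown nuclei, 31.7-fold apart (log2 ratio 4.99, 4.73 to 5.25). The WT brown level lay below the 9.55 of endothelial nuclei. Its thinned share of nuclei, 0.484% from 20 nuclei, lay below the endothelial 1.06% from 11 nuclei. The WT brown level could thus not be told apart from free RNA at the endothelial level. It was above the 3.68 of WT immune and the 2.20 of WT ASPC nuclei, from 8 and 3 UMIs. KO white-like nuclei held 71.3, which is 2.85-fold lower than WT white-like ones (log2 ratio -1.51, -1.76 to -1.26), and KO nuclei not white-like held 13.6. Over all adipocyte nuclei Retn was higher in KO, at 28.2 against 14.1, a log2 ratio of 0.99 (0.83 to 1.16) that stops just short of 2-fold. The direction within the white-like class is therefore opposite to that over all adipocyte nuclei with these classes. With classes from Leiden clusters, the log2 ratio between the white-like classes was 0.19. Those classes held 11 WT white-like nuclei, from clusters of mostly KO nuclei.

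Cfd, at chr10:79890853-79892655, encodes adipsin, the serine protease of the alternative complement pathway, and stood lower in the KO library wherever it was counted. In adipocyte nuclei it stood at 6.43 CPM in KO and 35.1 in WT (log2 ratio -2.45, -2.73 to -2.17). White-like nuclei held 19 in KO and 202 in WT, 10.7-fold apart. In the brown range, KO nuclei held 0 UMIs in 346 nuclei. With the KO count set to 3 UMIs, Cfd was 20.6-fold lower there than in WT brown nuclei, and the upper limit of the log2 ratio was -4.065.

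The same gap was found outside adipocytes. Cfd stood at 2.74 against 59.7 CPM in endothelial nuclei, 1 against 28.5 in immune nuclei and 0.649 against 35.2 in adipose stem and progenitor cell (ASPC) nuclei, with log2 ratios of -4.45, -4.83 and -5.76. The WT brown level of 27.1 was itself under the WT endothelial level. Per nucleus the order was the other way, with 28.5 UMIs per 100 WT brown nuclei and 19.3 per 100 endothelial nuclei, which are shallower. Cfd RNA of WT brown nuclei could thus not be told apart from free RNA, whereas in WT white-like nuclei it was above the endothelial level on both scales, at 202 CPM and 184 UMIs per 100 nuclei.

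Rbp4, at chr19:38116629-38125281, encodes the plasma carrier of retinol and was, like Cfd, highest in WT white-like nuclei and lower in KO. It stood at 41 CPM in WT white-like nuclei, 10.5 in WT brown nuclei, 13 in KO white-like nuclei and 2.79 in KO nuclei not white-like. It was lower in KO by a log2 ratio of -1.66 (-2.25 to -1.07) in the white-like class and of -1.91 (-2.43 to -1.42) between KO nuclei not white-like and WT brown ones. In the brown range of KO there was 1 UMI against 454 in WT, a log2 ratio of -4.58 with an interval of -9.88 to -2.09. Endothelial nuclei held 6.27 in WT and 1.64 in KO, the latter from 3 UMIs, so the KO level outside white-like nuclei is close to the endothelial one. It was above the 0.556 of KO ASPC nuclei and the 0.211 of KO immune nuclei, from 6 and 4 UMIs.

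Agt, at chr8:124556534-124569706, is the precursor of angiotensin and was hardly detected in any nucleus. There were 28 UMIs in WT and 9 in KO adipocyte nuclei, or 0.578 and 0.508 CPM, and no ratio is read from them. The highest WT levels were 5.47 CPM in white-like nuclei and 4.40 in ASPC nuclei, from 6 UMIs each.

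Bmp8b, at chr4:123105165-123132099, is a member of the bone morphogenetic protein family and stood higher in KO, with its highest level in the brown range rather than in white-like nuclei. KO adipocyte nuclei held 15.2 CPM and WT ones 4.17 (log2 ratio 1.86, 1.59 to 2.13). Within KO it stood at 35.6 in the brown range, 15.1 between and 4.92 in white-like nuclei. In WT the corresponding levels were 4.24, 3.54 and 3.65, which do not differ beyond their counting intervals. The order of classes in KO was thus the reverse of that of Adipoq, Lep, Retn, Cfd, Rbp4 and Nnat.

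In the brown range the KO level was 8.38-fold that of WT brown nuclei (log2 ratio 3.07, 2.67 to 3.45), a comparison chosen after the values were seen. A Bmp8b UMI was found in 15.6% of the 346 KO nuclei of that range (12% to 19.9%) and in 4.02% of WT brown nuclei, at median depths of 5495.5 and 7304 UMIs. After thinning the shares were 4.34% and 0.314%, against 0.199% of KO and 0.387% of WT endothelial nuclei, from 1 and 4 endothelial nuclei. The WT adipocyte level was close to the WT endothelial level of 4.18 CPM and could not be told apart from free RNA at that level. It was above the 2.20 of WT ASPC and the 1.38 of WT immune nuclei, from 3 UMIs each. The KO adipocyte level was 6.93-fold the 2.19 CPM of KO endothelial nuclei, the latter from 4 UMIs. The span of Bmp8b overlaps exons of Ppie on the opposite strand, which had 512 WT and 211 KO UMIs in adipocyte nuclei. It also overlaps Oxct2b on the same strand, without shared exons, which had 0 WT and 9 KO UMIs. The near-identical neighbour Bmp8a had 10 and 5 UMIs, so the split of reads between these genes is uncertain.

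Nnat, at chr2:157560078-157562522, separated white-like from brown nuclei more than any other member. WT white-like nuclei held 2284 CPM and WT brown nuclei 46.9, 48.7-fold apart (log2 ratio 5.61, 5.52 to 5.69). KO white-like nuclei held 208, which is 11-fold lower than in WT (log2 ratio -3.45, -3.56 to -3.35), and KO nuclei not white-like 18. Endothelial nuclei held 24.8 in WT and 8.22 in KO. The gene lies inside an intron of Blcap, which is read from the opposite strand and did not share exons with it. Blcap itself was 3.48-fold higher in WT white-like than in WT brown nuclei, a smaller gap than that of Nnat.

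Nnat was unevenly spread among the white-like nuclei. Of the 121 WT white-like nuclei, 33 held no Nnat UMI, 15 held 1, 15 held 2 to 9 and 58 held 10 or more, and these 58 held 97.2% of the class's Nnat UMIs with up to 109 in a nucleus. Of the 393 KO white-like nuclei, 283 held none and 27 held 10 or more, which made up 82.1% of its Nnat UMIs. The lower KO level thus went with a smaller share of nuclei of high Nnat, although the median depth of the class was 8968 UMIs in KO and 8761 in WT. In WT brown nuclei 15 of 4135 reached 10 UMIs, and in endothelial nuclei of both libraries 0 did.

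**Figure D2:**
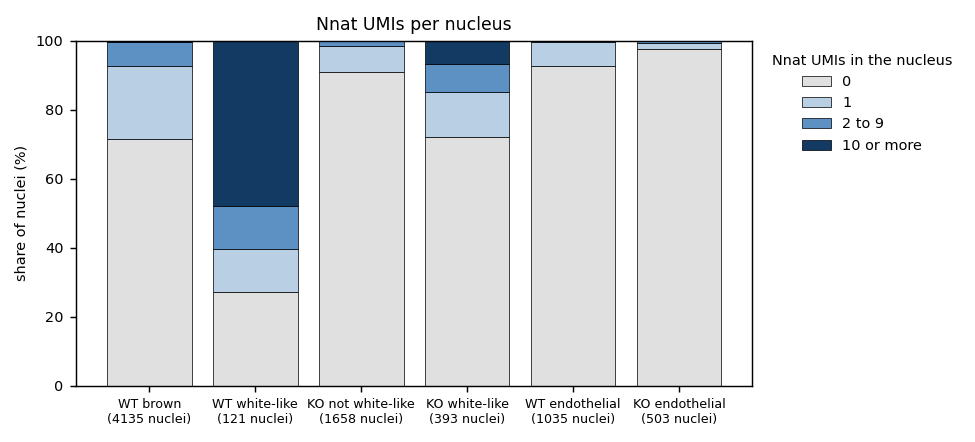
Share of nuclei (%) with 0, 1, 2 to 9 and 10 or more Nnat UMIs in 6 groups of nuclei, with the number of nuclei under each bar. Nuclei of 10 or more UMIs make up a large share of WT white-like nuclei, a small share of KO white-like nuclei and nearly none of the other groups.

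Sncg, at chr14:34370274-34374789, is reported to be abundant in white adipocytes and had few UMIs here. It stood at 13.7 CPM in WT white-like nuclei (7.65 to 22.5, 15 UMIs) and 0.968 in WT brown nuclei. The endothelial levels were 5.07 in WT and 2.19 in KO, so WT brown nuclei lay under the background. KO nuclei held 2.46 in the white-like class and 3.85 outside it, which do not differ beyond their counting intervals. The ratio between KO and WT adipocyte nuclei was 2.29-fold, at 3.50 and 1.53, with the WT value under the WT endothelial level. The KO value lay near the KO endothelial level, which rests on 4 UMIs. It was above the 0.556 of KO ASPC nuclei and the 0.422 of KO immune nuclei, from 6 and 8 UMIs.

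Across the 3 comparisons of KO with WT nuclei, the members' ratios depended on the class. Between KO nuclei not white-like and WT brown nuclei, Lep, Retn, Bmp8b and Sncg were at least 2-fold higher and Cfd, Rbp4 and Nnat at least 2-fold lower, 4 and 3 of 8, where 18.3% and 17.4% of all 15174 genes were. With Leiden clusters 2 of 8 were higher, with the endothelial level subtracted 2 of the 5 that kept a value, and with thinned nuclei 2 of 8. Their median log2 ratio was 0.35, against 0.08 over all genes. The WT brown group leaves out the WT nuclei that lay between. Against all WT nuclei not white-like, Retn stood at 13.6 in KO and 9.74 CPM in WT, within 2-fold. In white-like nuclei 6 members had enough UMIs, and 5 of them were at least 2-fold lower in KO and 0 higher, where 8.11% and 14.1% of all 9126 genes were. The sixth was Lep. The median log2 ratio of the 6 was -1.59, against 0.15 over all genes. The white-like classes also differed in other lists, with summed adipocyte markers of 179 in KO and 289 in WT per 10000 UMIs. The 7 immune markers with enough UMIs were all at least 2-fold higher in KO. The part of these differences in the members' ratios was not tested. These comparisons share nuclei of the same 2 libraries, so their values are not independent of each other.

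**Figure D3:**
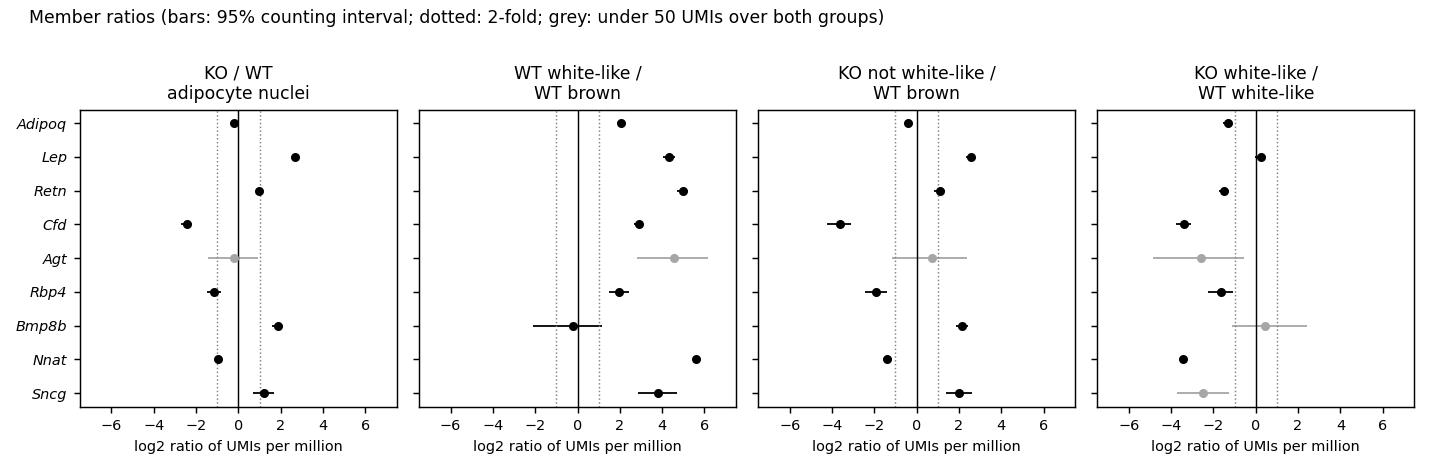
Log2 ratios of CPM for each member in 4 comparisons, with bars for the 95% counting interval, dotted lines at 2-fold and grey for members under 50 UMIs. White-like WT nuclei lie to the right for 7 of the 8 counted members, and KO white-like nuclei lie to the left of WT ones for all counted members but Lep.

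The brown sum was used to divide adipocyte nuclei into bands, so that KO and WT nuclei of a similar brown marker level could be set side by side, a comparison chosen after the values were seen. There were 913, 699, 334, 82 and 23 KO nuclei in bands that start at 0, 20, 60, 120 and 180 UMIs per 10000, and 85, 127, 1166, 1682 and 1590 WT nuclei. The bands match the brown sum and not the class: below 20, 324 of the 913 KO and 72 of the 85 WT nuclei were white-like, and from 20 to 60, 69 and 49 were. Lep was lower at higher brown sums in both libraries, and at like levels. It stood at 115 in KO and 142 in WT below 20, at 52.3 and 70.6 from 20 to 60, and at 18.4 and 16.9 from 60 to 120, with log2 ratios of -0.31 (-0.59 to -0.01), -0.43 (-0.81 to -0.03) and 0.12 (-0.39 to 0.60). The 6.30-fold gap over all adipocyte nuclei was thus not seen between nuclei of matched brown sum in these bands, and the 2 lower ones held slightly less Lep in KO. From 120 on the KO library held 1 Lep UMI in 82 nuclei and 0 in the last 23, too few to compare. Divided by the white sum instead, the gap was seen. Lep stood at 26.4 in KO and 5.90 in WT at a white sum under 1, at 43.6 and 9.47 from 1 to 5, at 79.1 and 23.5 from 5 to 10, at 113 and 79.2 from 10 to 20 and at 208 and 181 above, where the last pair of intervals overlaps. At a matched white sum the KO nuclei had the lower brown sum, with medians of 41.2 against 152 in the lowest band and 19.4 against 135 from 5 to 10. Whether Lep differs between the libraries thus depends on which marker sum is matched.

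Bmp8b differed at matched brown sums. Its levels were close below 20, at 3.63 in KO and 3.92 in WT. In the 4 bands above, it stood at 18.4, 36.9, 56.3 and 50.6 CPM in KO against 3.16, 2.71, 5.09 and 4.08 in WT, so it was higher at higher brown sums in KO. In WT the band from 120 to 180 (4.17 to 6.15) also lay above that from 60 to 120 (1.84 to 3.84), by a smaller step. From 60 to 120 the log2 ratio was 3.77 (3.16 to 4.41) and from 120 to 180 it was 3.47 (2.79 to 4.10). The highest KO band rests on 7 Bmp8b UMIs, and the WT bands under 60 on 3 each. By white sum it was higher in KO as well, at 21 against 3.77 under 1 and 14.8 against 4.81 from 1 to 5.

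The other abundant members were lower in KO at matched brown sums below 120. Adipoq stood at 87.2 against 305 below 20, 48.6 against 198 from 20 to 60 and 40.7 against 86.2 from 60 to 120, and came closer from 120 to 180 at 60.7 against 68.5. Retn was 47.3 against 225 and Nnat 109 against 2565 below 20, a band that was mostly white-like in WT and mostly not in KO. Cfd was lower by log2 ratios of -4.39 below 20 and -5.43 from 20 to 60. The 5 members at least 2-fold lower in KO white-like nuclei stood at least 2-fold lower at matched brown sums below 60, unlike Lep. This is not separate support, since all WT white-like nuclei lie in these bands, 72 and 49 of them. By white sum, Retn was higher in KO under 1, at 14.5 against 5.19, and lower from 5 to 10, at 24.9 against 46. Adipoq was within 2-fold under 1, at 51.9 against 67.8. Cfd and Nnat were lower in KO at each white sum, at 1.66 against 26.8 and 11.4 against 37.9 under 1. For Retn the direction thus depends on which sum is matched.

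**Figure D4:**
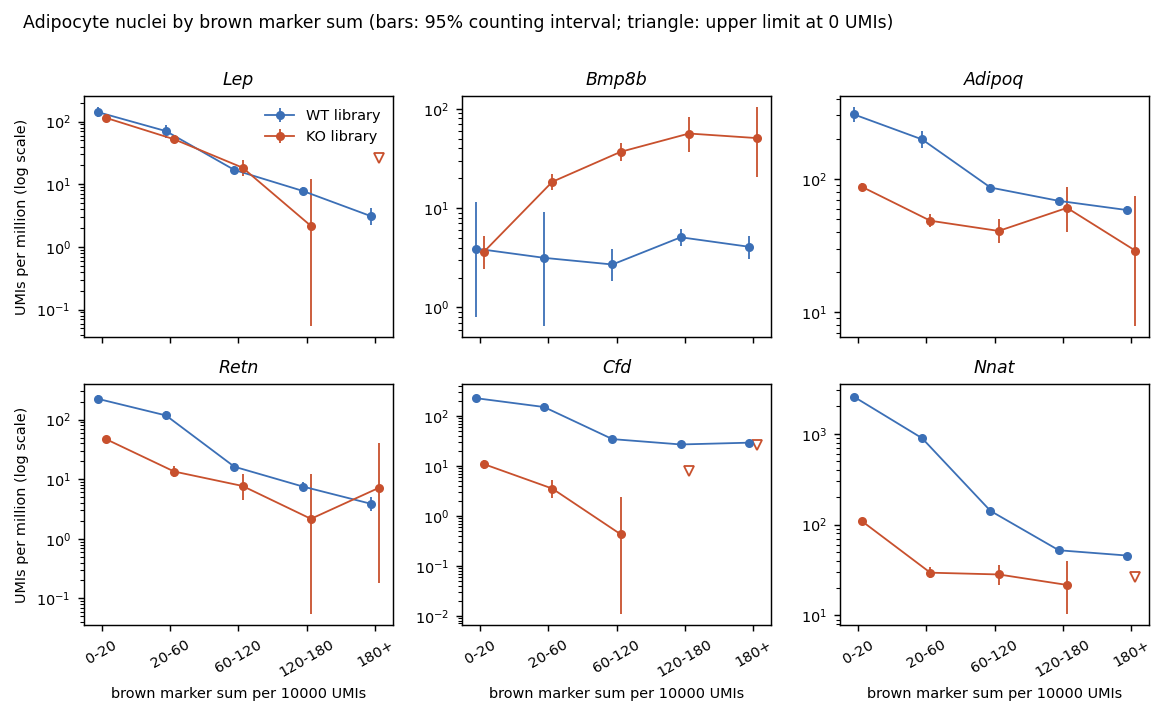
Levels of 6 members in CPM (log axis) in adipocyte nuclei of the WT (blue) and KO (red) libraries, in bands of the brown marker sum, with bars for the 95% counting interval and triangles for its upper limit at 0 UMIs. The Lep lines lie close up to 120, the Bmp8b lines part above 20, and Cfd and Nnat lie lower in KO.

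Within KO, white-like and other adipocyte nuclei also differed by member. White-like nuclei held more Nnat (11.6-fold), Cfd (8.68-fold), Retn (5.25-fold), Rbp4 (4.64-fold), Lep (3.97-fold) and Adipoq (2.18-fold) than KO nuclei not white-like, and less Bmp8b, by a log2 ratio of -1.92. The step was narrower than in WT for Lep and Retn, whose WT white-like nuclei exceeded WT brown ones 19.9-fold and 31.7-fold. A WT white-like nucleus held UMIs of a median of 4 of the 9 members and a KO white-like nucleus of 2, against 1 in WT brown nuclei and in KO nuclei not white-like and 0 in endothelial nuclei. Of WT white-like nuclei 32.2% held 5 or more members, and of KO ones 5.60%, at like median depths of 8761 and 8968 UMIs.

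Outside adipocytes the members gave a background that differed between the libraries. As a share of the adipocyte level in the same library, the median over the 8 members with enough UMIs was 60.3% in WT and 15.1% in KO endothelial nuclei, against 22.1% and 14.2% for 10 other adipocyte transcripts such as Plin4 and Fasn. In ASPC, immune and mural nuclei the members' median was lower, at 25.4%, 29.6% and 44% in WT and 10.2%, 11.5% and 6.19% in KO. In WT 2 of 8 members, Lep and Nnat, were at least 2-fold above endothelial nuclei, where 20.1% of all 14783 genes were. In KO 7 of 8, all but Sncg, were so, where 25.6% of all 12740 genes were. The KO endothelial levels of these 7 rest on 3 UMIs (Rbp4) to 19 UMIs (Adipoq), and the log2 interval of Cfd, -0.03 to 2.88, spans 0. With thinned nuclei, 4 of 8 in WT and 5 of 8 in KO were at least 2-fold above. In WT 5 members lay within 2-fold of the endothelial level and Sncg lay under it. In CPM without thinning, the WT levels were thus closer to the background than those of KO.

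**Figure D5:**
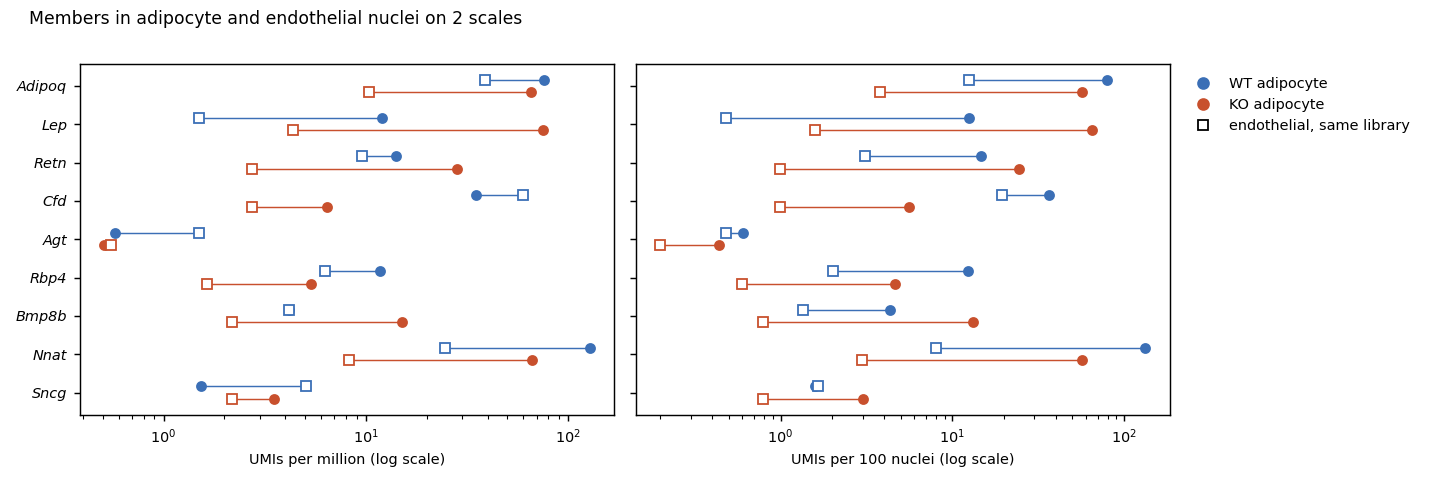
Levels of the members in adipocyte (filled circles) and endothelial nuclei (open squares) of the WT (blue) and KO (red) libraries, in CPM and per 100 nuclei, both on log axes. In CPM, Cfd, Agt and Sncg of WT lie lower in adipocyte than in endothelial nuclei, and per 100 nuclei Cfd and Agt lie higher.

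Endothelial nuclei were shallower than adipocyte nuclei, and a free molecule weighs more in the CPM of a shallow nucleus, so both scales are given. Per nucleus, WT brown nuclei held more than WT endothelial ones of Lep (15.9-fold), Nnat (6.13-fold), Adipoq (5.55-fold), Rbp4 (5.41-fold), Bmp8b (3.29-fold), Retn (2.18-fold) and Cfd (1.47-fold). In CPM the same ratios were 4.91, 1.89, 1.71 and 1.67 for Lep, Nnat, Adipoq and Rbp4, while Bmp8b stood at 4.24 in brown and 4.18 in endothelial nuclei and Retn and Cfd were 1.49-fold and 2.20-fold lower. Lep, Nnat, Adipoq and Rbp4 were thus above the endothelial level on both scales in WT brown nuclei, and Bmp8b, Retn and Cfd were not. Between the libraries, the background of Lep differed in the other direction from that of Adipoq. In immune nuclei Adipoq stood at 25.3 CPM in WT and 6.01 in KO, whereas Lep stood at 0.460 in WT, from 1 UMI, and 4.38 in KO, from 83 UMIs.

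Of 39 listed partners of the members, such as receptors, binding proteins and enzymes of the same pathways, 28 had enough UMIs between KO and WT adipocyte nuclei, and 6 were at least 2-fold higher and 4 at least 2-fold lower in KO. Against the 18.6% and 17.6% of all genes, these shares are not read as particular to the partners, and the genes are named by their place in the list. For adiponectin, the receptor Adipor2 stood at 1594 CPM in KO and 2190 in WT and Adipor1 at 26.8 and 30.9, both within 2-fold. Cdh13, which encodes the adiponectin-binding T-cadherin, stood at 86.2 and 185. Ero1l, listed as Ero1a, an oxidase of the endoplasmic reticulum that helps release adiponectin, stood at 193 and 27.2, a log2 ratio of 2.83 (2.74 to 2.92), while Erp44, which retains adiponectin there, stood at 86.2 and 109. Of these partners, Ero1l was the one at least 2-fold higher and Cdh13 the one at least 2-fold lower.

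Tlr4, proposed as a receptor for resistin, was the partner with the widest gap, at 293 in KO and 19.7 in WT adipocyte nuclei (log2 ratio 3.90), and was also 4.97-fold higher in WT white-like than in WT brown nuclei. Immune markers were higher in KO adipocyte nuclei too, and the part of immune RNA in the partners' ratios was not tested. Of the complement genes, C3 was lower at 17.7 against 39.3 and Cfb higher at 6.77 against 1.96. Acvr2b, a type II receptor of the BMP family, was higher at 11.1 against 4.73, and Bmpr1a and Bmpr2 were within 2-fold. Atp6ap2 and Enpep of the angiotensin system were higher by log2 ratios of 1.10 and 1.00, and Ace lower, with a log2 ratio of -1.22. Between WT white-like and brown nuclei, 6 of 27 partners were at least 2-fold higher and 3 lower, beside 13.7% and 12.7% of all genes.

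Of 33 other secreted proteins of adipose tissue, 23 had enough UMIs between KO and WT adipocyte nuclei, with 8 at least 2-fold higher and 7 lower, beside 18.6% and 17.6% of all genes. The stress-induced factor Gdf15 stood at 28.6 against 0.578 CPM, a log2 ratio of 5.63 (5.08 to 6.23). Fst, an activin-binding protein, stood at 13.4 against 2.33, Itih5 at 249 against 52.1 and Rarres2 (chemerin) at 16.4 against 5.23. The lower ones included Vegfa, the angiogenic factor, at 362 against 985, Nampt at 184 against 599 and the lipase Lpl at 880 against 2156. Ptgds had 0 UMIs in KO and 279 in WT adipocyte nuclei, 34.1-fold lower with the KO count set to 3 UMIs. Of the adiponectin relatives, C1qtnf12 stood at 5.19 against 17.6 and C1qtnf1 at 7.56 against 3.14.

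Between WT white-like and brown nuclei the same list split, with 7 of 20 genes at least 2-fold higher, 4 lower and a median log2 ratio of 0.15, beside 13.7% and 12.7% of all genes. Itih5, Rarres2, Igf1 and C1qtnf1 were 5.31-fold, 6.73-fold, 8.72-fold and 10.5-fold higher in the white-like nuclei. Nampt was lower in both comparisons. The brown fat factor Nrg4 stood at 1289 in KO and 1874 in WT adipocyte nuclei, within 2-fold.

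The genes with a pattern most like each member were found by Pearson's r of log2(CPM + 1) over 14 points, which are the 7 classes of at least 50 nuclei in each library, among 15156 genes. The points share their 2 libraries, their depth and free RNA, so r is a description. The closest were Adrb3, the beta-3 adrenergic receptor, to Adipoq (0.968), Kcns3 to Lep (0.963), Ces1f to Retn (0.957), Car3 to Cfd (0.931), Cnr1 to Rbp4 (0.960), Sars to Bmp8b (0.948), the gene model Gm36860 to Nnat (0.964) and Plpp6 to Sncg (0.791). Among the members, Retn was close to Nnat (0.93), Adipoq (0.90) and Rbp4 (0.90), while Bmp8b was at 0.48 to Lep and -0.28 to Cfd. Slc7a10, the second closest to Retn (0.951), is a white marker that was used to call the white-like nuclei.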

How the data were processed

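Single-nucleus RNA-seq was performed on 2 libraries, 1 WT and 1 KO. The deposited values are UMI counts of genes in nuclei, 1 matrix per library and without normalization, which the authors made by alignment to GRCm38 with STAR and counting with Cell Ranger. The submitters' processing notes name Cell Ranger 5.0.0, and the methods name another version. Whether intronic reads were counted is not given in the sources used here, so counts may include unspliced RNA.

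The filter required 200 genes or more, a mitochondrial share up to 10%, and log UMIs and log genes no further than 3 median absolute deviations from the median of the library. Nuclei that passed and had at least 2000 UMIs were called by marker sums per 10000 UMIs. Adipocyte nuclei had an adipocyte sum of at least 50 (markers such as Plin1, Pparg, Cidec, Acsl1, Ghr, Aqp7, Dgat2, Pnpla2 and Pck1) and every other list under 20. The other types had an own sum of at least 40 and at least 2 times every other such list, with an adipocyte sum under 80. In all 6585 WT and 7236 KO nuclei were called, 4433 and 2338 were too shallow and 1753 and 1804 met no rule. Doublets were kept. The limits were set on the marker sums with no member value used.

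Counts were summed per library and class, with exact Poisson intervals for levels, exact Clopper-Pearson intervals for shares and the conditional binomial interval for ratios. These intervals cover counting error only. A ratio was counted with at least 50 UMIs over both groups, and 0 UMIs were set to 3. The percentages of all genes past 2-fold use the same rule. The ratio was tested on simulated data. Python 3.11.15, numpy 2.4.6, scipy 1.17.1, pandas 2.3.3, matplotlib 3.10.9 and, for alternatives, scanpy 1.11.5 were used. The members, partner lists and markers were chosen with earlier results of these data known. Genes named are members, markers, listed partners and secreted proteins, overlapping neighbours and the 3 genes most like a member by r among genes with at least 200 UMIs. Part of these are named in the text, and some are not reported here. Alternatives were other filters on nuclei, stricter and looser limits, classes from Leiden clusters, removal of high doublet scores, white-like nuclei called from Slc7a10 alone, totals without mitochondrial genes, averages of single nuclei, ratios centred on all genes, other minimums of UMIs, subtraction of the endothelial level and nuclei thinned to 1000 UMIs. Subtraction per nucleus and minimums of 1000 and 4000 UMIs for called nuclei were added after seeing the data, as were the bands of brown and white sum and the comparisons of the brown range of KO.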

Additional observations from a re-analysis of the deposited data

How the results depend on the processing

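No paired analysis was possible because there was 1 library per genotype, so no library could be left out and no replicate error is known. Over 17 alternatives, Lep and Bmp8b were higher in KO adipocyte nuclei, Cfd lower, and Lep, Retn and Nnat higher in WT white-like than in WT brown nuclei wherever a value could be given. The log2 ratio between KO and WT adipocyte nuclei ranged from 2.47 to 2.76 for Lep, 1.72 to 2.31 for Bmp8b and -3.55 to -1.64 for Cfd. Counts of members past 2-fold moved as follows. Between KO and WT adipocyte nuclei, the lower ones were 1 with fixed filter limits for nuclei and 0 with the endothelial level subtracted, which leaves 5 of 8 members with a value and none for Cfd. Between WT white-like and brown nuclei, the lower ones were 1 with stricter limits and 1 with Leiden clusters, and the higher ones 4 with the endothelial level subtracted, which is all 4 that kept a value. Between KO nuclei not white-like and WT brown nuclei, the higher ones were 2 with Leiden clusters, 2 of 5 with that subtraction and 2 with thinned nuclei. The higher ones between white-like nuclei of KO and WT were 1 with looser limits. Those of WT above endothelial nuclei were 4 with stricter limits, 4 with thinned nuclei and 4 with at least 4000 UMIs. The Leiden clusters called 11 WT and 1940 KO nuclei white-like and 168 KO nuclei not white-like. The 11 WT nuclei lay in clusters of mostly KO nuclei, 7 beside 1468 and 4 beside 472. A cluster of 264 WT and 2 KO nuclei, with a white sum of 11.23, was called between at a brown sum of 75.98. Of the 168 KO nuclei, 133 came from a cluster with an adipocyte sum of 52.36 and a brown sum of 7.622. These classes thus differ from those of the marker sums in the nuclei they hold. With Leiden clusters, the log2 ratio of Lep between KO nuclei not white-like and WT brown nuclei was 0.52. Log2 ratios turned to -1.497 for Retn between the same classes, 0.19 for Retn between the white-like classes and -1.06 for Cfd between WT white-like and brown nuclei. With thinned nuclei they turned to -0.61 for Cfd between KO adipocyte and endothelial nuclei and -0.27 for Sncg between KO nuclei not white-like and WT brown nuclei. The cause was not tested. The doublet caller marked 0.193% of KO nuclei and is not relied on there. Depth limits Agt, Sncg, Rbp4 in KO and Bmp8b in WT, where a class holds few UMIs.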
